A study of Mus musculus with 12 samples.

Results

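The mitochondrial transhydrogenase Nnt and 9 enzymes of antioxidant defence were followed by RNA sequencing in mouse hearts that had or lacked Fabp3 and had been operated with or without aortic constriction. The 10 genes were taken by symbol from a table of 19308 genes, and all 10 were among the 14094 genes with enough counts to be tested. Nnt was chosen from its own values, since every Fabp3-null heart lay below every wild-type (WT) heart of the same surgery. Its values between genotypes are therefore given as a description, with no test. The other 9, taken as enzymes of the same defence, were Sod1, Sod2, Cat, Gpx1, Gpx3, Gpx4, Prdx3, Txnrd2 and Gsr.

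The series held 12 hearts in 4 groups of 3, namely WT sham, KO sham, WT TAC and KO TAC, where KO stands for the Fabp3-null genotype. Fabp3 encodes the fatty acid binding protein of heart muscle, and the KO mice were global knockouts made with CRISPR-Cas9, not limited to heart muscle cells. All mice were C57BL/6 males according to the labels and the study's methods, were operated at 8 weeks of age, and gave whole hearts 1 week later. TAC, transverse aortic constriction, narrows the aorta and puts the left ventricle under pressure, while sham mice had the same operation without the constriction. The comparisons ask how loss of Fabp3 and pressure overload each relate to these transcripts.

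Respiration in heart mitochondria releases superoxide, which superoxide dismutases turn into hydrogen peroxide. Catalase, glutathione peroxidases and peroxiredoxins then remove the peroxide. The last 2 of these enzyme kinds draw their electrons from glutathione and thioredoxin, which glutathione reductase and thioredoxin reductases restore with NADPH. Nnt sits in the inner mitochondrial membrane and uses the proton gradient to make NADPH in the matrix. The C57BL/6J substrain is known for a deletion of internal exons in Nnt that leaves it without a working enzyme, whereas C57BL/6N mice carry the intact gene. The labels give C57BL/6 without a substrain, and the deposited values are 1 count per gene and heart, so that exons and alleles could not be told apart. A part of the Nnt allele in the values below was not tested.

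A property that had no part in choosing the genes separates 4 of them from the rest. Gpx1, Gpx3, Gpx4 and Txnrd2 encode selenoproteins, in which a TGA codon, elsewhere a stop, is read as selenocysteine. The coding sequence around that codon is shown for each, because it is what the 4 share, while their estimates between the groups had different signs. The stretches run 5′ to 3′ on the coding strand from the GENCODE vM21 annotation of the GRCm38 mouse genome, with the selenocysteine codon in capitals.
Gpx1: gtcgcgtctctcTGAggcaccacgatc
Gpx3: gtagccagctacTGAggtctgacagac
Gpx4: gtggcctcgcaaTGAggcaaaactgac
Txnrd2: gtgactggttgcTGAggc
The codon was number 47 of 201 in Gpx1, 73 of 226 in Gpx3 and 129 of 253 in the Gpx4 transcript used, so that in all 3 peroxidases it lies well inside the protein. In Txnrd2 it was codon 526 of 527, with 1 glycine codon, GGC, between it and the stop. No selenocysteine codon was annotated in Nnt, Sod1, Sod2, Cat, Prdx3 or Gsr.

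Each heart gave 10424334 to 14372011 estimated counts, and values below are CPM, counts scaled to a common library total with TMM factors. Fabp3 was measured first as a check of the labels. WT sham hearts had 2466 ± 367 CPM of it (SD, n = 3) and KO sham hearts 1065 ± 24.4 CPM, while WT TAC hearts had 2952 ± 97.4 CPM and KO TAC hearts 1002 to 1143 CPM. All 6 hearts labelled KO lay below all 6 WT hearts, and Fabp3 transcripts were still present in each KO heart. By western blot the study reported FABP3 protein as abolished in KO hearts, which is a measure of protein and not of transcript. Cardiomyocyte markers made up 58139 to 108984 CPM in sum with 58139 to 70816 CPM in the KO TAC group, whose range was shared by 1 WT sham heart at 70657 CPM. Fibroblast markers summed to 762 to 1554 CPM in WT sham, 1091 to 1426 CPM in KO sham, 1471 to 3308 CPM in WT TAC and 1596 to 7157 CPM in KO TAC hearts, with KO TAC replicate 2 the highest of all. Of the 8 fibroblast markers, 8 had higher estimates and 0 lower ones with TAC over both genotypes. Macrophage markers were higher with TAC for 8 of 8 as well, and no fibroblast or macrophage marker passed the adjusted threshold there. None of the cardiomyocyte, fibroblast or macrophage markers was at 0 in any heart. Red blood cell markers varied from 321 to 4733 CPM in sum and endothelial markers from 684 to 1236 CPM. Adipocyte markers reached at most 1.67 CPM in sum. These are bulk samples, so fewer cells of a type and less RNA per cell cannot be told apart.

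Per kilobase of merged exon in GENCODE vM21, which need not be the annotation the authors counted on, the highest members in WT sham hearts were Gpx4 at 482 ± 109 and Sod1 at 475 ± 85.2 CPM per kb (SD, n = 3). These neighbours in the order overlapped. Nnt came next with 361 ± 35.2 CPM per kb. Its highest heart, at 401.8 CPM per kb, shared range with Gpx4 and Sod1, whose lowest hearts were at 393.9 and 397.0 CPM per kb. Below Nnt were Gpx3 at 265 ± 69.0 and Prdx3 at 211 ± 20.9 CPM per kb, which overlapped. Cat at 138 ± 7.73 and Sod2 at 123 ± 19.2 CPM per kb overlapped as well. The lowest Nnt heart of WT sham, at 340.1 CPM per kb, was barely above the highest Gpx3 heart, at 339.5 CPM per kb. Txnrd2 at 67.9 ± 10.6 and Gpx1 at 60.7 ± 15.4 CPM per kb overlapped, and Gsr was the lowest member at 8.87 ± 0.857 CPM per kb. In KO sham hearts Nnt was at 164 ± 14.2 CPM per kb, and in KO TAC hearts at 125 ± 54.2 CPM per kb.

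Nnt stood at 1494, 1499.8 and 1765 CPM in the 3 WT sham hearts. In KO sham hearts it was at 650.2, 748 and 766 CPM, so the highest KO heart lay well under the lowest WT heart. WT TAC hearts had 1040.2, 1352 and 1861 CPM, and KO TAC hearts 427, 396 and 823 CPM. The KO mean was 45.5% of the WT mean after sham and 38.7% after TAC. On the log2 scale the fitted difference, KO against WT, was -1.14 (SE 0.28) after sham and -1.37 (SE 0.28) after TAC. The group means ranked in the order WT sham, WT TAC, KO sham, KO TAC, from 1586 ± 155 through 1418 ± 415 and 721 ± 62.4 to 549 ± 238 CPM (SD, n = 3). The only neighbours in this order without shared range were WT TAC and KO sham, so the genotypes were apart and the surgeries within a genotype were not. The sham groups were tight, with coefficients of variation of 9.75% in WT and 8.65% in KO, whereas WT TAC reached 29.2% and KO TAC 43.4%.

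**Figure D1:**
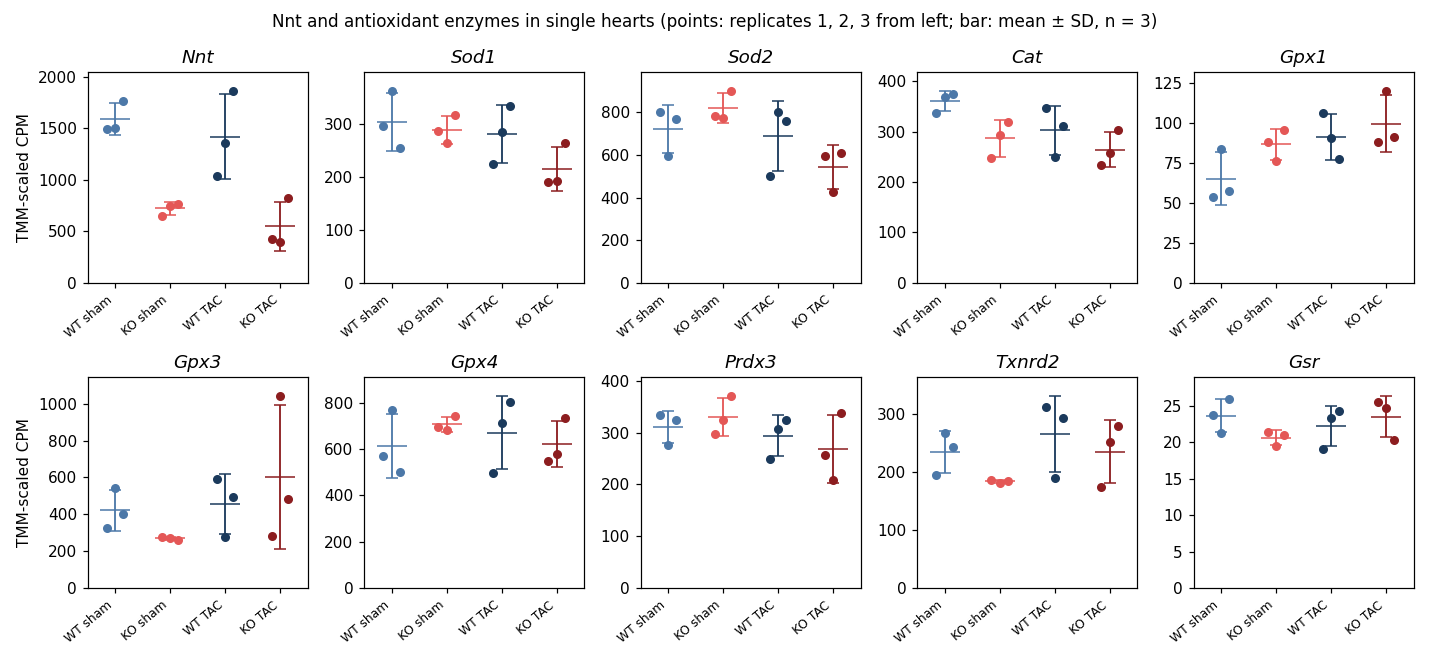
Nnt and the 9 antioxidant enzymes in single hearts, in TMM-scaled CPM on axes that start at 0; points are the hearts of each group with replicates 1 to 3 from left to right, and bars are mean ± SD (n = 3). Nnt is the only panel in which all 6 KO hearts lie below all 6 WT hearts, with 823 CPM in the highest KO heart and 1040.2 CPM in the lowest WT heart.

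The margin by which Nnt met the rule differed between surgeries. The lowest WT heart was 1.95 times the highest KO heart after sham and 1.26 times after TAC, where KO TAC replicate 3 sat closest to the WT hearts. Just outside the rule, Cat had a ratio of 1.06 after sham and 0.827 after TAC, and Txnrd2 1.04 and 0.681. For Gpx3 the ratios were 1.16 and 0.264, and for Gsr 0.995 and 0.748. Of all genes tested, 0.688% (97 genes) had every KO heart below every WT heart of the same surgery, and 0.348% (49 genes, Nnt included) had all 6 KO hearts below all 6 WT hearts. Among those 97, 24 had a lower mean log2 fold change than Nnt, whose mean over both surgeries was -1.25 (SE 0.20).

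KO TAC replicate 3 decided much of the spread of Nnt. Without it, the log2 difference between KO and WT after TAC was -1.79, and without WT TAC replicate 3 it was -1.13. That KO TAC heart also had the lowest fibroblast marker sum of its group, 1596 CPM against 4067 and 7157 CPM in replicates 1 and 2. Its summed level of 12 NADPH-supplying genes, Nnt among them, was 4374 CPM against 2226 and 2051 CPM. Idh2 made up most of these sums, with 2948 CPM in replicate 3 and 1256 and 1144 CPM in replicates 1 and 2. The mean log2 level of that list, relative to WT sham, was -0.17 in replicate 3 and -0.32 and -0.39 in replicates 1 and 2. In the WT TAC group, replicate 3 likewise had the highest Nnt, at 1861 CPM, and the lowest fibroblast marker sum, at 1471 CPM. Its sum of the NADPH-supplying genes was also the highest of that group, at 5331 CPM. Whether these differences have a part in the Nnt values was not tested.

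Within a genotype, TAC was set against sham with a test, since those contrasts did not choose Nnt, although the rule used the same hearts. In WT hearts the log2 fold change of Nnt was -0.16 (SE 0.28, edgeR adjusted p = 0.944), and the 95% interval of -0.77 to 0.44 does not settle a direction. In KO hearts it was -0.40 (SE 0.28, edgeR adjusted p = 0.492). Without KO TAC replicate 3 this value was -0.81 (edgeR adjusted p = 0.0558), and without KO TAC replicate 2 it was -0.22. The difference between these surgery effects, the interaction, was -0.23 (SE 0.39) for Nnt, given as a description because it shares the genotype values.

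Of the 2 genes nearest to Nnt on each side of its chromosome, in the gene order of RefSeq, 3 of the 4 had enough counts to be tested. The gene left out was Fgf10, which lies between Mrps30 and Nnt. Mrps30, a mitochondrial ribosomal protein gene, had log2 differences between KO and WT of 0.25 (SE 0.16) after sham and -0.05 after TAC. Paip1, a translation cofactor gene on the other side, was at -0.03 and 0.02, and 4833420G17Rik at 0.01 and 0.02. None of these 3 neighbours passed the threshold in either genotype contrast, and for Paip1 and Mrps30, the nearest tested gene on each side, the SE was 0.13 and 0.16. Fabp3 lies on another chromosome than Nnt. Whether the surrounding region has a part in the Nnt values was not tested.

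**Figure D2:**
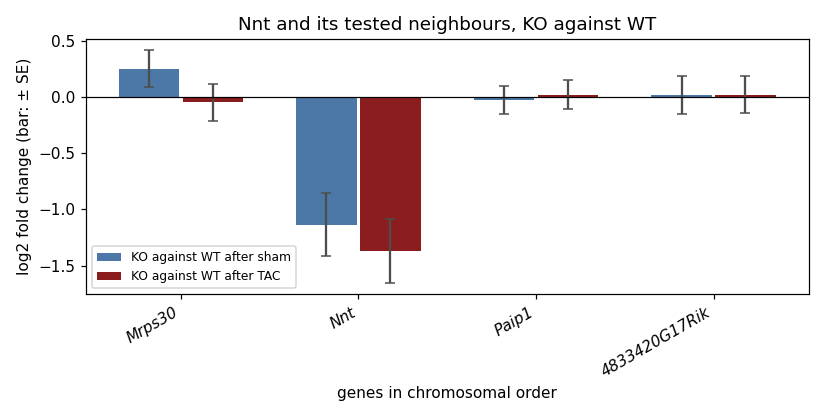
Fitted log2 fold changes (± SE) of Nnt and its 3 tested neighbours in chromosomal order, KO against WT, in blue after sham and in red after TAC. Nnt is at -1.14 and -1.37, and the nearest tested genes on either side, Mrps30 and Paip1, lie between -0.05 and 0.25.

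The genes whose log2 CPM went most closely with Nnt over the 12 hearts were Cd59a (Pearson r = 0.97), Maob (0.94), Nosip (0.92), the gene listed as BGIG10090_46290 (0.92) and Tmem181b-ps (0.91). The lowest correlations were those of Tmem254b (-0.99), Cd300a (-0.94), Adcy3 (-0.93), Sh3pxd2a (-0.92) and Rell1 (-0.91). The points share the split by genotype and the same libraries, so these values describe likeness and carry no p. Once group means were taken out, r was 0.78 for Cd59a, 0.90 for Maob, 0.73 for Nosip, 0.34 for Tmem181b-ps and -0.97 for Tmem254b. Cd59a, a complement inhibitor gene, had 146 to 166 CPM in WT sham and 97.4 to 109 CPM in KO sham hearts. Tmem254b, of the reverse pattern, had 3.19 to 3.98 CPM in WT sham and 10.7 to 13.1 CPM in KO sham hearts, and belongs to a family of near-identical copies in which reads can be shared between genes. The same limit holds for the pseudogene Tmem181b-ps.

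The superoxide dismutases were next. Sod1, the copper and zinc enzyme of the cytosol, had 296, 363 and 254 CPM in WT sham and 286, 264 and 317 CPM in KO sham hearts, which overlapped. After TAC it had 225, 285 and 335 CPM in WT and 191, 192 and 264 CPM in KO hearts. The KO TAC hearts overlapped with WT TAC, yet with 263.60 CPM at most they lay just under the lowest KO sham heart at 263.65 CPM. The log2 fold change of TAC against sham was -0.42 in KO (SE 0.19, edgeR adjusted p = 0.286, unadjusted 0.0470) and -0.11 in WT hearts (SE 0.19, edgeR adjusted p = 0.944).

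Sod2, the manganese enzyme of the mitochondrial matrix, had 803, 593 and 769 CPM in WT sham and 785, 772 and 900.4 CPM in KO sham hearts. In WT TAC hearts it was at 500.3, 803 and 759 CPM, and in KO TAC hearts at 597, 426 and 610.2 CPM. All 3 KO TAC hearts lay below all 3 KO sham hearts, while the WT groups overlapped. TAC against sham gave -0.59 in KO hearts (SE 0.21, edgeR adjusted p = 0.206, unadjusted 0.0159) and -0.07 in WT hearts (SE 0.21, edgeR adjusted p = 0.969). Between genotypes the estimate was 0.18 (SE 0.21) after sham and -0.34 (SE 0.21) after TAC, with edgeR adjusted p of 0.998 and 0.583. The difference between these, -0.52 (SE 0.30), did not pass the test of the interaction (edgeR adjusted p = 0.954).

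Cat encodes catalase, which breaks down hydrogen peroxide, mainly in peroxisomes. It had 337, 368 and 375 CPM in WT sham and 246, 294 and 319 CPM in KO sham hearts, so that these groups did not overlap. After TAC, WT hearts had 347, 249.7 and 310.4 CPM and KO hearts 234, 257 and 302 CPM, with shared range. The log2 difference between KO and WT was -0.33 (SE 0.16, edgeR adjusted p = 0.862) after sham, -0.19 (SE 0.16, edgeR adjusted p = 0.672) after TAC and -0.26 (SE 0.11, edgeR adjusted p = 0.471, unadjusted 0.0373) over both surgeries. Leaving out single hearts moved the last value between -0.32 and -0.21.

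Gpx1, the glutathione peroxidase of cytosol and mitochondria, had 53.7, 84.0 and 57.6 CPM in WT sham hearts, the lowest group. KO sham hearts had 88.1, 76.6 and 95.8 CPM, WT TAC hearts 106, 90.6 and 77.6 CPM and KO TAC hearts 88.0, 120.1 and 91.2 CPM. Every group shared range with WT sham except KO TAC, whose lowest heart, at 88.0 CPM, was above 84.0 CPM, the highest WT sham heart. The estimate for KO against WT was 0.41 after sham (SE 0.19, edgeR adjusted p = 0.840, unadjusted 0.0521) and 0.13 after TAC (SE 0.19, edgeR adjusted p = 0.835). For TAC against sham it was 0.49 in WT (SE 0.19, edgeR adjusted p = 0.782, unadjusted 0.0257) and 0.20 in KO hearts (SE 0.19, edgeR adjusted p = 0.629). Over both genotypes TAC gave 0.35 (SE 0.14, edgeR adjusted p = 0.213), which did not pass.

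Gpx3 encodes the secreted glutathione peroxidase and was the member with the widest spread. WT sham hearts had 325, 541 and 399 CPM, and KO sham hearts lay below them at 279, 269.7 and 263 CPM. WT TAC hearts had 592, 275 and 496 CPM, and KO TAC hearts 280.3, 1041 and 485 CPM, so that these groups overlapped. All 3 KO TAC hearts were above the KO sham hearts, the first of them by little, 280.3 against 279 CPM. TAC against sham in KO hearts was 1.16 (SE 0.41, edgeR adjusted p = 0.202, unadjusted 0.0151), and 0.49 (edgeR adjusted p = 0.656) without KO TAC replicate 2, the heart with the highest Gpx3 value. The same heart had the highest fibroblast marker sum, 7157 CPM, and the lowest cardiomyocyte marker sum, 58139 CPM. The part of these in the Gpx3 value was not tested. After TAC the log2 difference between genotypes was 0.41 (SE 0.40) with this heart and -0.26 without it.

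Gpx4, the peroxidase that acts on lipid hydroperoxides in membranes, had 571, 768 and 501 CPM in WT sham, 694, 680 and 743 CPM in KO sham, 498, 711 and 803 CPM in WT TAC and 548, 578 and 735 CPM in KO TAC hearts. All 4 groups overlapped, and the highest group mean was 1.15 times the lowest. Its 4 log2 estimates between paired groups ran from -0.19 for TAC against sham in KO hearts to 0.20 for KO against WT after sham, each within its standard error of 0.21, and its interaction was -0.31 (SE 0.30, edgeR adjusted p = 0.958).

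Prdx3, the peroxiredoxin of the mitochondrial matrix, stood at 334, 276 and 324 CPM in WT sham and 298, 324 and 371 CPM in KO sham hearts. It had 250.2, 308 and 325 CPM in WT TAC and 257, 209 and 339 CPM in KO TAC hearts. These ranges overlapped throughout, and the largest estimate, TAC against sham in KO hearts, was -0.30 (SE 0.18, edgeR adjusted p = 0.421).

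Txnrd2, the mitochondrial thioredoxin reductase, which keeps the Prdx3 system reduced, had 195, 267 and 242 CPM in WT sham hearts. KO sham hearts were within 186, 181 and 184 CPM, below them and with a coefficient of variation of 1.53%. WT TAC hearts had 312, 190.0 and 293 CPM and KO TAC hearts 174, 251 and 279 CPM. The KO TAC hearts shared range with both sham groups, and the WT TAC hearts shared range with WT sham but not with KO sham. The estimate for KO against WT was -0.35 after sham (SE 0.21) and -0.17 after TAC (SE 0.21), with edgeR adjusted p of 0.998 and 0.780. Txnrd2 and Gpx3, both selenoproteins, had KO sham hearts below WT sham without overlap, a pattern held by 6.92% of all genes. So did Cat, which is not a selenoprotein, and Nnt, which was chosen for it. KO sham was the tightest group for the selenoproteins and also for Nnt, Sod1, Sod2 and Gsr, though not for Cat or Prdx3. Over all genes, too, KO sham replicates differed least from each other, with a chi-square per degree of freedom of 9.84 to 14.6 between pairs. In the other groups the pairs were at 15.7 or above, so this tightness was not particular to the members. The selenoproteins Gpx1 and Gpx4 had positive estimates for KO against WT after sham, 0.41 and 0.20.

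Gsr encodes glutathione reductase, which returns oxidised glutathione to its reduced form with NADPH, and was the least abundant member. It had 23.8, 21.4 and 25.9 CPM in WT sham, 21.5, 19.5 and 21.1 CPM in KO sham, 19.1, 23.4 and 24.3 CPM in WT TAC and 25.6, 24.7 and 20.3 CPM in KO TAC hearts. The groups overlapped, and its 4 estimates between paired groups lay between -0.20 and 0.19 with a standard error of 0.14.

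**Figure D3:**
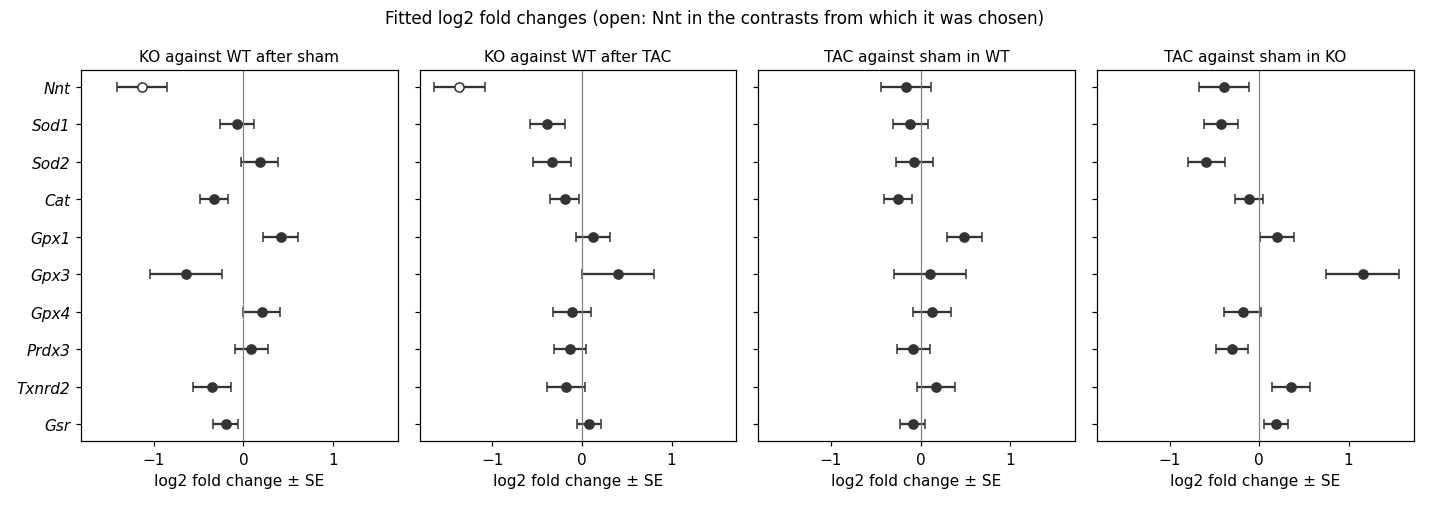
Fitted log2 fold changes (± SE) of the 10 genes in 4 contrasts, KO against WT after each surgery and TAC against sham in each genotype; open circles mark Nnt in the contrasts from which it was chosen. Nnt is at -1.14 and -1.37 between genotypes, and the other 9 lie between -0.64 and 0.41 there, while TAC against sham in KO hearts spreads them from -0.59 for Sod2 to 1.16 for Gpx3.

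Counted together, 0 of the 9 members other than Nnt passed an adjusted p under 0.05 between genotypes after sham, where 0.106% of all genes did, and 0 of 9 passed after TAC, where 0.078% of all genes did. Without adjustment, at a p of 0.05 or below, the counts were also 0 of 9 and 0 of 9, beside 6.02% and 10% of all genes. Over both surgeries, 0 of 9 passed beside 0.412% of all genes, and 1 of 9, Cat, had an unadjusted p under that limit beside 10.1%. In the TAC contrasts, 0 of 10 members passed in WT hearts, beside 0% of all genes, and 1 of 10, Gpx1, reached the unadjusted limit beside 6.28%. In KO hearts 0 of 10 passed, again beside 0% of all genes, while Sod1, Sod2 and Gpx3 reached the unadjusted limit, 3 of 10 beside 17.1% of all genes. Over both genotypes 0 of 10 passed beside 0.078%, and Sod2, Gpx1 and Gpx3 reached the unadjusted limit beside 17.8%. For the interaction both counts were 0 of 9, beside 0% and 4.48% of all genes. DESeq2 and limma-trend likewise called 0 members in each of these contrasts, with Nnt left out of the same ones.

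Apart from Nnt, the groups did not overlap for 3 of the 9 members after sham, Cat, Gpx3 and Txnrd2, all with KO below WT, beside 6.92% of all genes. No member had KO above WT without overlap after sham, beside 6.78%. After TAC 0 of 9 lay below, beside 5.1% of all genes, and 0 of 9 above, beside 6.3%. In KO hearts Sod1 and Sod2 lay lower after TAC without overlap, 2 of 10 beside 11.4% of all genes, and Gpx3 lay higher, beside 11.5%. In WT hearts no member was without overlap between surgeries, beside 4.43% of all genes below and 4.67% above. The median log2 difference of the 9 members was -0.07 after sham and -0.13 after TAC, and that of all genes -0.00 and 0.02.

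The wider pathway was read from lists of 76 further tested genes. Between genotypes, 0 of 76 passed the adjusted threshold after sham and 0 of 76 after TAC, whereas 4 (5.26%) and 13 (17.1%) of them had a p of 0.05 or below before adjustment, beside the 6.02% and 10% of all genes given above. Over both surgeries 1 of 76 passed, beside 0.412% of all genes, and it was lower in KO, while 11 (14.5%) had a p of 0.05 or below before adjustment, beside 10.1%. The gene that passed was Maob, monoamine oxidase B, an enzyme of the outer mitochondrial membrane that makes hydrogen peroxide as it breaks down amines. Maob was at 80.8, 81.8 and 76.9 CPM in WT sham, 36.5, 33.8 and 39.3 CPM in KO sham, 47.3, 53.8 and 62.3 CPM in WT TAC and 29.1, 25.3 and 44.6 CPM in KO TAC hearts. All KO hearts lay below all WT hearts, and the log2 difference over both surgeries was -0.93 (SE 0.13, edgeR adjusted p = 0.00817). Maob was also among the genes most like Nnt by correlation, which is the same pattern in the same hearts.

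With TAC, 0 of the 76 genes passed in WT hearts, in KO hearts or over both genotypes, and 8 (10.5%), 20 (26.3%) and 16 (21.1%) of them reached the unadjusted limit, beside 6.28%, 17.1% and 17.8% of all genes. Over both genotypes the 12 genes of oxidant production had 10 higher and 2 lower estimates, with a median of 0.23. The highest was Nox4, an NADPH oxidase, at 1.87 (SE 0.51, edgeR adjusted p = 0.114), on low levels. It had 0.655 to 1.01 CPM in WT sham, 0.998 to 2.51 CPM in KO sham, 0.440 to 3.37 CPM in WT TAC and 3.49 to 15.8 CPM in KO TAC hearts, so that the WT groups overlapped, and the largest value was again in KO TAC replicate 2. Among catalase and the glutathione peroxidases, 4 of 6 estimates were higher, from -0.18 for Cat to 0.72 for Gpx7 (SE 0.19, edgeR adjusted p = 0.111), a peroxidase of the secretory pathway. Among the NRF2 pathway genes 2 of 11 were higher and 9 lower, and they ran from -0.47 for Osgin1 to 0.76 for Hmox1, haem oxygenase 1 (SE 0.18, edgeR adjusted p = 0.104).

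The peroxiredoxin list, with the sulfiredoxin gene Srxn1 included, had 1 higher and 6 lower estimates with TAC. They ran from 0.34 for Prdx4 of the endoplasmic reticulum to -0.32 for Prdx5. The thioredoxin and glutaredoxin genes ran from -0.24 for Txn2, the mitochondrial thioredoxin, to 0.26 for Txnrd2. The superoxide dismutase list ran from -0.33 for Sod2 to 0.32 for Sod3, the extracellular enzyme. Of the NADPH-supplying genes, 4 were higher and 8 lower, between -0.92 for Aldh1l2 and 0.39 for G6pdx, which encodes the first enzyme of the pentose phosphate pathway. None of these passed the test.

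Genes of glutathione synthesis, recycling and transfer, most of them transferases, had 12 of 13 estimates below 0 between genotypes over both surgeries. The median log2 difference was -0.29, with 5 genes under the unadjusted limit and 0 past the adjusted threshold. The gene above 0 was Gclc, a gene of glutathione synthesis, at 0.10, and the lowest was the transferase Mgst1 at -0.72. Of all genes, 51.1% had estimates above 0 in that contrast, and 10.1% and 0.412% passed these limits. In KO TAC hearts the mean log2 level of this list, relative to WT sham, was -0.64, -0.64 and -0.12, and KO TAC replicate 3 was again the heart nearest to WT. With TAC over both genotypes the list ran from -0.56 for Gstm1 to 0.13 for Mgst1, both glutathione transferases. The selenoprotein list ran from -0.19 for Sephs2, which makes the selenium donor, to 0.26 for Selenop, the selenium carrier of plasma, and the metallothioneins from -0.44 for Mt3 to 1.28 for Mt2.

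Genes that serve as a gauge of mitochondrial content were lower with TAC in 12 of 12 cases over both genotypes, with a median log2 difference of -0.17 and the lowest at -0.34 for Hspd1, and 0 passed the test. By genotype their median was 0.06 after sham and -0.13 after TAC, where Nnt, chosen from those contrasts, was at -1.14 and -1.37. A part of mitochondrial content in the Nnt values was not tested. The estimates of Sod2 in KO hearts with TAC, -0.59, stood beside a median of -0.32 for these 12 genes and of -0.46 for the 8 cardiomyocyte markers in the same contrast. Their part in the Sod2 value was not tested.

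**Figure D4:**
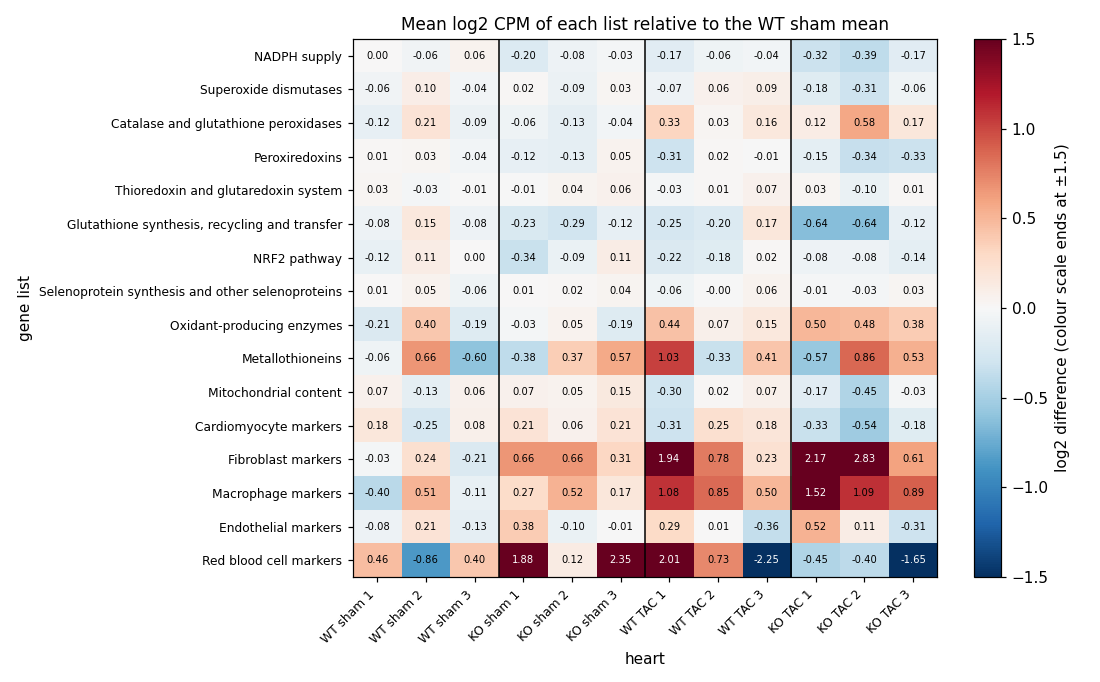
Mean log2 CPM of each gene list in each of the 12 hearts relative to the WT sham mean, as colours and printed values. Glutathione genes, most of them transferases, are lowest in KO TAC replicates 1 and 2, both at -0.64. In these hearts fibroblast markers are highest, at 2.17 and 2.83. WT TAC replicate 1, next for fibroblast markers at 1.94, has glutathione genes at -0.25. A link between these lists was not tested.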

How the data were processed

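Whole-heart RNA of 12 mice, 3 in each of 4 groups given by the labels, had been sequenced. The authors deposited estimated counts per gene, not normalized, of which 40.6% were not whole. Before that they filtered reads with SOAPnuke, and the submitters' processing notes name HISAT2 2.0.4, STAR 2.3.0 and the builds mm8 and mm9; the counting tool and annotation are not given in the sources used here. The single-heart tables equalled the joint table in 11 of 11 hearts compared, and the twelfth breaks off. A count shared between similar genes can move with the counting method, and the estimates of Nnt, Sod1, Sod2, Gpx4 and Txnrd2 were not whole in nearly all hearts.

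Counts were rounded, filtered with filterByExpr (minimum count 10, which removed 5214 of 19308 genes) and fitted to the 4 groups with edgeR 4.0.16 (quasi-likelihood, TMM factors 0.931 to 1.09) in R 4.3.3, with limma 3.58.1 and DESeq2 1.42.0 as alternatives. A gene was called where its p, adjusted by Benjamini-Hochberg over the 14094 genes tested, was under 0.05. Log2 CPM for correlations and lists used a prior count of 2. A script with this model was tested on simulated data.

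Replicates are separate hearts per the labels. Counts of replicates differed by more than sampling noise in all 12 pairs (chi-square per degree of freedom 9.84 to 79.0), and intervals cover the spread between these hearts only. With 3 against 3, an exact permutation test of a single gene cannot go below 0.1 and was not used. Depth was 10424334 to 14372011 counts per heart, at which 3 counts are 0.209 to 0.288 CPM. A RefSeq gene ID was found for 18225 genes and for 10 of 10 members.

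Named were all members, the 5 genes most and the 5 least correlated with Nnt, genes called in a list and otherwise the highest and lowest of each list in the TAC contrast over both genotypes. Cd59a and Tmem254b levels and the neighbours were described after their values were seen, and genes farther from Nnt on the chromosome are not reported here. The members and the gene lists were chosen with earlier results of these data known. Alternatives were other scaling, filters and tools, a replicate block, fits of the compared hearts alone, and leaving out each heart.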

Additional observations from a re-analysis of the deposited data

Results flagged for a closer look

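Sod2 was flagged because the genotypes differed in opposite directions after the 2 surgeries: every KO sham heart lay above the WT sham mean, 772 to 900.4 against 722 CPM, and every KO TAC heart lay below the WT TAC mean, 426 to 610.2 against 688 CPM. The test of that difference gave a log2 interaction of -0.52 (SE 0.30, edgeR adjusted p = 0.954, unadjusted p = 0.105), which did not pass the threshold. KO and WT hearts overlapped in both surgeries.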

How the results depend on the processing

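Under each alternative fit, 0 members passed the adjusted threshold in each of the 7 contrasts. Nnt was left out of this and the next count between genotypes and for the interaction, having been chosen from those values. With calls at an unadjusted p of 0.05 or below, the count was 1 between genotypes over both surgeries, 1 for TAC in WT hearts, 3 for TAC in KO hearts and 3 for TAC over both genotypes. Other scaling, filters and tools turned no member's direction. The counts over all genes depended more on the setting. KO against WT after sham gave 15 genes with edgeR and 102 with DESeq2, 56 in a fit of the 6 hearts compared and 8 with the block. After TAC the counts were 11, 94, 0 and 8, and TAC in KO hearts gave 0 genes with edgeR and 442 with DESeq2. Without KO TAC replicate 3, the heart whose Nnt was nearest to WT, edgeR called 103 genes between genotypes after TAC and 778 for TAC in KO hearts, none of them one of the 9 enzymes. The cause was not tested.

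The replicate numbers are not stated to pair hearts. The deviations of same-numbered hearts from their group means had correlations of -0.14 to 0.36, over 0.1 in 4 of 12 pairs. In 7 of these 12 comparisons between groups, the same-numbered heart was the closest of the 3 in the other group. A fit with the number as a replicate block called 0 members, with Nnt again not counted between genotypes or for the interaction. Nnt with TAC in KO hearts was then at -0.46.

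Leaving out 1 heart at a time turned the sign of 20 of the members' log2 estimates, and the values then ran as follows. For KO against WT after sham, Sod1 ran from -0.19 to 0.071 and Prdx3 from -0.0021 to 0.16. After TAC, Gpx1 ran from -0.041 to 0.25, Gpx3 from -0.26 to 0.74, Gpx4 from -0.29 to 0.036, Prdx3 from -0.34 to 0.0092 and Gsr from -0.021 to 0.17. Over both surgeries, Gpx3 ran from -0.45 to 0.048, Gpx4 from -0.043 to 0.14 and Prdx3 from -0.13 to 0.046. For TAC in WT hearts, Nnt ran from -0.41 to 0.018, Sod1 from -0.26 to 0.032, Sod2 from -0.20 to 0.11, Gpx3 from -0.13 to 0.37, Gpx4 from -0.021 to 0.32, Prdx3 from -0.16 to 0.023 and Gsr from -0.16 to 0.0094. For TAC over both genotypes Gpx4 ran from -0.10 to 0.068, and for the interaction Nnt ran from -0.65 to 0.011 and Txnrd2 from -0.015 to 0.35. Without KO TAC replicate 3, Nnt was at -1.79 between genotypes after TAC and -1.46 over both surgeries.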
